A study of Mus musculus with 9 samples.

Results

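The genes described here are 35 genes of meiotic recombination and chromosome synapsis, out of 38685 genes listed in a table of mouse testis RNA. They were chosen by name. The rows of 34 genes were found by their symbol, and Sgo2a, which the table lists under its older symbol Sgol2a, was found by its Ensembl identifier (ENSMUSG00000026039). The table holds 9 libraries of whole testis from male C57BL/6 mice. Of these, 3 were Prm2+/+, 3 were Prm2+/- and 3 were Prm2-/-, the deletion removing protamine 2, a small basic protein that packs DNA in the sperm head. The null allele was made by CRISPR/Cas9 editing in oocytes and is present in every cell of the animal, while the gene itself is transcribed in spermatids, after meiosis has ended. The labels give neither the age of the animals nor the line used. They do not tie a library to an animal either, so p-values measure the spread between these libraries.

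In the first meiotic division the homologous chromosomes must find each other, pair and exchange DNA. SPO11 cuts the DNA at sites that PRDM9 marks, the recombinases search the homologue for a matching sequence, and a few of the breaks become crossovers, which later hold the homologues together. Meanwhile cohesin and HORMA-domain proteins build an axis along each chromosome, and the synaptonemal complex zips the axes of the homologues together. In the testis these events take place in spermatocytes, which come before the spermatids in which protamines replace histones. The comparison of genotypes therefore asks whether loss of a late, spermatid protein was accompanied by a difference in transcripts of an earlier stage.

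Promoter sequences were examined because they are a property that the choice of genes did not use. Promoters from RefSeq (GRCm38.p6, 250 bases before to 50 after each start) were found for 30 of the 35 genes, 37 promoters in all, against 32851 promoters of all genes. The E2F site GGCGGGAA, searched on both strands, was present in 6 of these 37 promoters (16.2%), belonging to 5 genes, and in 2.19% of all promoters. E2F6, which recognises this kind of site, is known to help silence germ-line genes in somatic cells. The windows that hold the site are shown 5′ to 3′ on the strand of the gene, with the site in capitals; in Prdm9 it reads in the antisense direction.

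Hormad1: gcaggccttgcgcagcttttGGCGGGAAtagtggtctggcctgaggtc

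Rnf212: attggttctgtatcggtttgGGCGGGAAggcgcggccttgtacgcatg

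Syce2: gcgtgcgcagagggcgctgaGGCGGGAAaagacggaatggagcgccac

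Prdm9: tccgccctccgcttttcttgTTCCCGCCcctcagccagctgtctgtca

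Msh5: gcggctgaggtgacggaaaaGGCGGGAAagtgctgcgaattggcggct

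The Hormad1 window lies at chr3:95559561-95559608 on the plus strand, that of Rnf212 at chr5:108775088-108775135 on the minus strand and that of Syce2 at chr8:84872203-84872250 on the plus strand. Those of Prdm9 (chr17:15564374-15564421) and Msh5 (chr17:35046661-35046708) lie on the minus strand. The first base of the site stood 96, 88, 35, 47 and 66 bases before the RefSeq start in Hormad1, Rnf212, Syce2, Prdm9 and Msh5. For the other sites searched, the shares of these promoters and of all promoters lay closer together. The site AACGGNC of MYB proteins, the family of the spermatocyte activator MYBL1, was in the promoters of 5 genes (Msh4, Sycp3, Meioc, Prdm9, Msh5; 13.5% of the 37 promoters against 4.76% of all). The site CNCCTCAG, bound by STRA8 with MEIOSIN, was in those of 6 genes (Sycp1, Hfm1, Syce2, Hormad2, Prdm9, Msh5; 16.2% against 7.94%). It shared 4 bases with the E2F site in Syce2 and 2 bases in Prdm9. The cyclic AMP response element TGACGTCA was in 1 promoter (2.7% against 1.79%), that of Brca2, 20 bases before the start, and its window at chr5:150522581-150522628 is shown because Brca2 took distinct levels across libraries, as described later.

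Brca2: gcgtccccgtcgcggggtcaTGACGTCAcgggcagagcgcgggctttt

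A match of letters is a description of the sequence and not evidence that a factor was bound. None of the genes whose promoter held the E2F site passed the test in any comparison.

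Each library held 3629929 to 4490411 counts after the submitters' scaling was undone, and values are given as normalized counts (counts divided by a factor for each library's depth). The library of Prm2+/+ replicate 3 stood apart. Its median correlation with the other 8 was 0.8352 over log2 values, against 0.8921 to 0.8991 for the others. Estimates of several single genes that rest on it are given with and without it. Interval counts, most sums and the ranges of the other genes are given only with it. The targeted gene itself, Prm2, was not lower in the Prm2-/- libraries, with 37810 ± 4344 normalized counts (SD, n = 3) against 33050 ± 5732 in Prm2+/+ and 31890 ± 2287 in Prm2+/-. Where the deletion lies relative to these transcript-end reads was not examined, so the level of Prm2 does not check the labels. In RNA of whole testis, fewer cells of a type and less RNA per cell cannot be told apart.

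The 35 genes covered a wide range of levels. The mean over the 9 libraries was over 1000 normalized counts for 5 genes, from 100 to 1000 for 13, from 10 to 100 for 14, and 10 or less for 3. The 4 highest (Syce1, Smc1b, Sycp2 and Sycp1) made up 52.7% of the summed level of the 35, and the 9 highest 84.4%. Divided by the length of annotated exons, means were 1550 normalized counts per kb for Syce1, 1350 for Syce3, 663 for Sycp3, 476 for Sycp1, 464 for Syce2 and 444 for Smc1b. The lowest above Rad21l, at 0, were Prdm9 with 4.25, Mcmdc2 with 1.41 and Mei4 with 0.534 per kb. The 9 most abundant transcripts all encoded proteins of the synaptonemal complex or of cohesin. Reads start near the transcript end in this assay, so division by length lowers long genes.

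**Figure D1:**
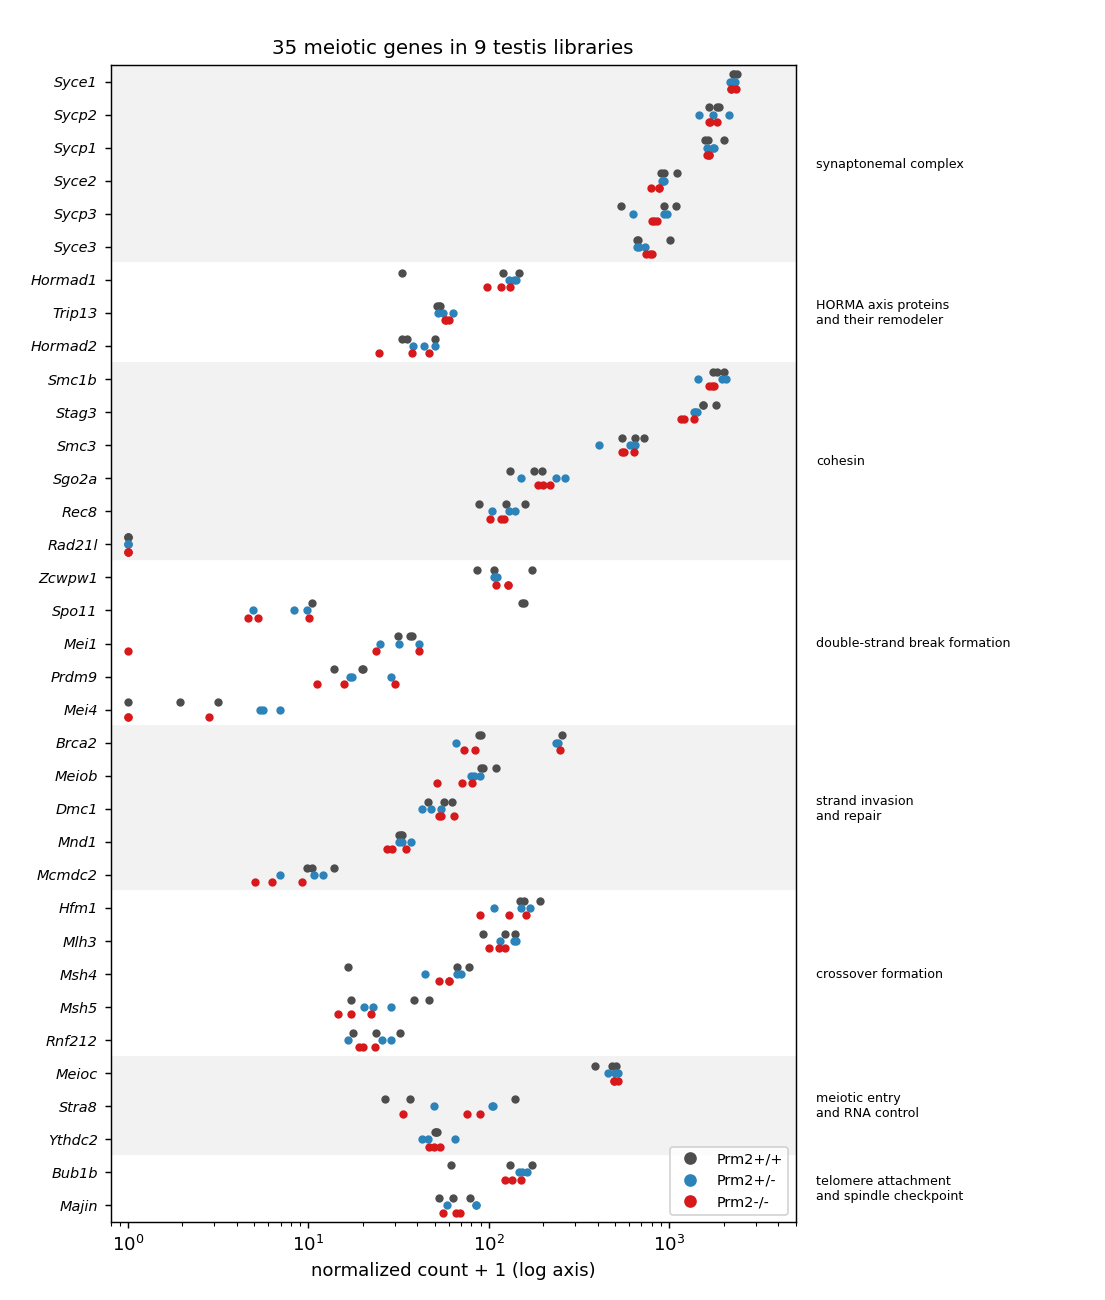
Normalized counts plus 1 of the 35 genes on a log axis, grouped by role and ordered by mean level; each point is 1 library, coloured by genotype (3 libraries each). Syce1 is highest, at 2154 to 2377, Rad21l is at 0 in all 9 libraries, and points of the 3 genotypes overlap for most genes. Spo11 and Mei1 are split into separate levels, and Brca2 is spread with a smaller gap.

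Loss of Prm2 was not accompanied by a change of any of these genes that passed the test. Of the 35 genes, 31 had enough counts to be tested among 14893 genes, and 0 of the 31 were called between Prm2-/- and Prm2+/+ by limma at an adjusted p under 0.05 and a log2 fold change beyond 0.5, where 0.181% of all genes tested were called. Without correction for multiple tests, 2 of the 31 (6.45%) had p under 0.05, Stag3 and Meiob, both lower in Prm2-/-, against 7.33% of all genes (3.36% lower). By edgeR 0 genes were called (3 with unadjusted p under 0.05, against 6.91% of all genes), and by DESeq2, which also tests genes with few counts, 1 was called, Spo11 (0.563% of all genes). The median log2 fold change was -0.05 over the 31 genes and 0.02 over all genes, with 11 genes above 0 and 20 below.

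The comparisons with heterozygotes gave the same counts of 0. Between Prm2+/- and Prm2+/+, limma called 0 of 31 (0.0806% of all genes), 1 gene had an unadjusted p under 0.05 (Stag3, lower; 4.24% of all genes, 2.01% lower), edgeR called 0 and DESeq2 called 1, again Spo11 (0.265% of all genes). The median log2 fold change was -0.02, against 0.01 over all genes. Between Prm2-/- and Prm2+/-, limma called 0 (0.175% of all genes), 0 had an unadjusted p under 0.05 (5.44% of all genes), and edgeR and DESeq2 called 0 (by DESeq2 0.454% of all genes). The median was -0.13 against -0.01, with 7 genes above 0 and 24 below. The comparisons share libraries, so their values are not independent of each other. How many of all genes edgeR called was not set beside its counts of 0, here or above, so these have no background.

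The data bounded the change of some of the genes closely. In Prm2-/- against Prm2+/+, the 95% confidence interval lay within 1.5-fold in either direction for 14 of the 31 genes, against 32.0% of all genes tested. It lay within 2-fold for 23 of the 31, and for 9183 of the 14893 genes tested. The share within 1.5-fold was 14 of 31 in Prm2+/- against Prm2+/+ (33.4% of all genes) and 12 of 31 in Prm2-/- against Prm2+/- (33.8%). The median distance from the estimate to the end of its interval was 0.49 on the log2 scale, against 0.57 for all genes. An interval that includes 0 leaves any change within its bounds possible.

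**Figure D2:**
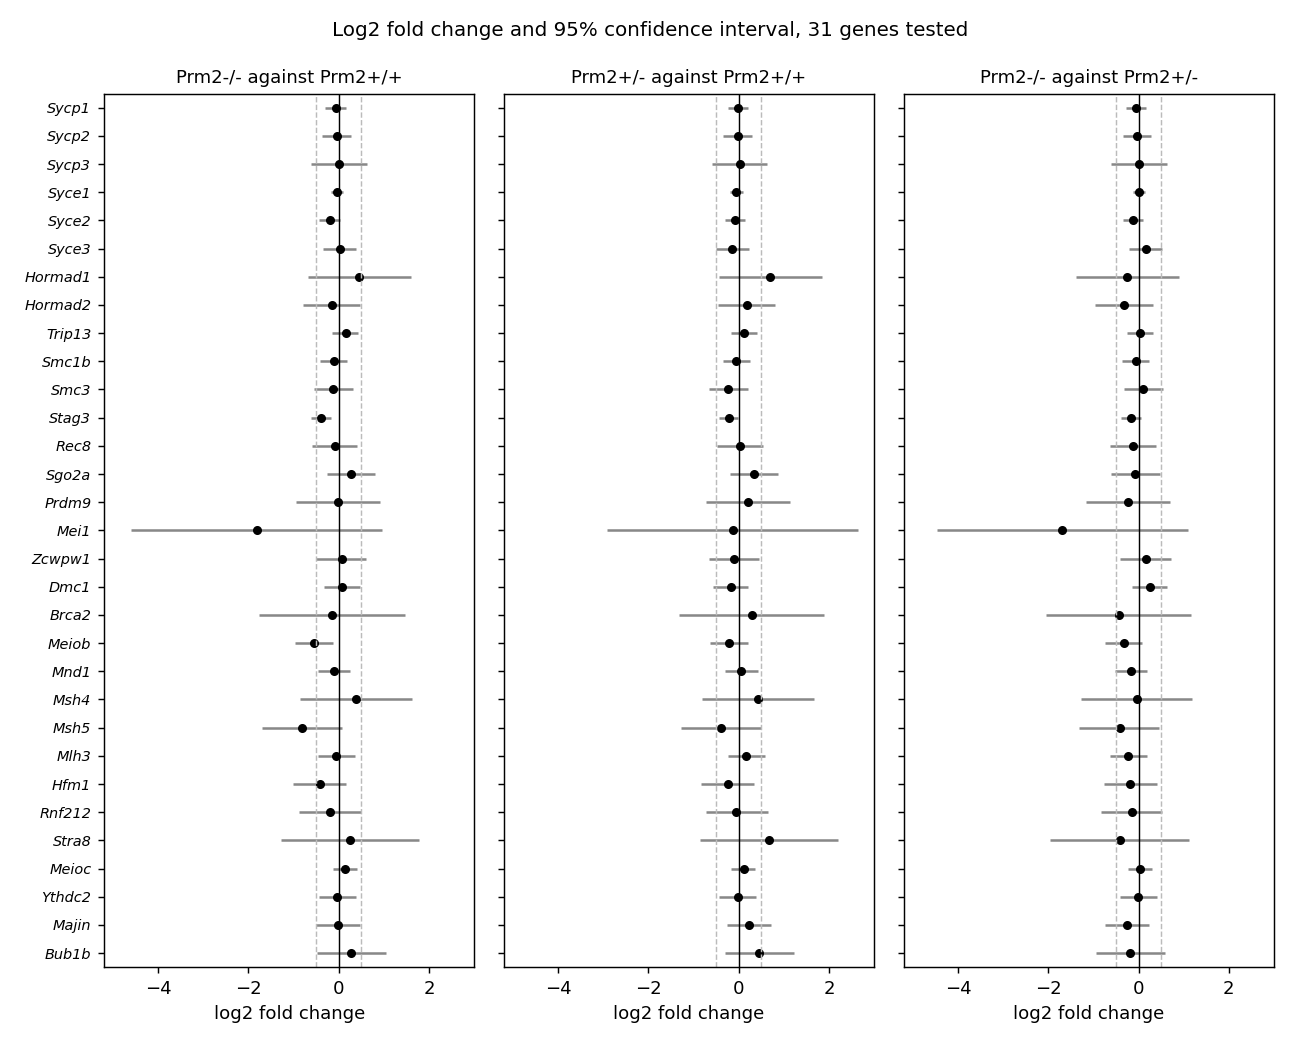
Log2 fold change (point) with its 95% confidence interval (line) for the 31 genes tested, in order of role, in 3 comparisons of genotypes with 3 libraries each; dashed lines mark 0.5 in either direction. Of the 6 synaptonemal complex genes, 5 have an interval within 1.5-fold in Prm2-/- against Prm2+/+, whereas Mei1, with an interval from -4.6 to 0.96 in Prm2-/- against Prm2+/+, is the widest.

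A looser description counts genes whose 3 libraries of one genotype all lie on one side of the 3 of the other. Between Prm2-/- and Prm2+/+ this held for 4 of the 31 genes (12.9%), against 14.0% of all genes tested. Stag3, Meiob and Syce2 were the lower ones (7.1% of all genes) and Trip13 the higher one (6.92%). Between Prm2+/- and Prm2+/+ it held for Stag3 and Meiob (6.45%, against 9.44% of all genes), both lower (4.56%), and between Prm2-/- and Prm2+/- for Syce2, lower (7.25% of all genes), and Syce3, higher (7.47%), together against 14.7% of all genes. In each comparison the share was near or under that of all genes.

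The synaptonemal complex genes included the most even gene of the set. Syce1 encodes a central element protein that helps to join the sides of the complex. It stood at 2255, 2284 and 2377 normalized counts in the Prm2+/+ libraries, at 2310, 2232 and 2154 in Prm2+/- and at 2346, 2204 and 2199 in Prm2-/-. The genotypes overlapped, and the 9 values had a coefficient of variation of 3.24%, the smallest of the 35 genes. Between Prm2-/- and Prm2+/+ the estimate was a log2 fold change of -0.04 (SE 0.06, 95% interval -0.17 to 0.1, adjusted p = 0.887).

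Sycp1, whose protein forms the transverse filaments of the zipper, ranged from 1566 to 2006 normalized counts with a median of 1647. Sycp2, of the axial element, ranged from 1458 to 2134 with a median of 1750. Sycp3, its partner in the axial element, ranged more widely, from 538 in Prm2+/+ replicate 3 to 1083 in Prm2+/+ replicate 2. Both ends of that range thus lay in libraries of the same genotype.

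The other central element genes gave the non-overlapping groups named above. Syce2 stood at 930, 893 and 1104 in Prm2+/+, at 935, 916 and 906 in Prm2+/- and at 787, 872 and 873 in Prm2-/-. All Prm2-/- values lay below the others, by 0.2 on the log2 scale against Prm2+/+ (SE 0.1, unadjusted p = 0.0666, adjusted p = 0.71) and by 0.12 against Prm2+/- (adjusted p = 0.984). Syce3 was 667, 657 and 1009 in Prm2+/+, 679, 661 and 733 in Prm2+/- and 799, 741 and 775 in Prm2-/-. Its highest value was in Prm2+/+ replicate 3, so that Prm2-/- lay above Prm2+/- (log2 fold change 0.16, adjusted p = 0.991) but inside the range of Prm2+/+. Without that library, Prm2-/- lay above Prm2+/+ as well, by a log2 fold change of 0.22 (unadjusted p = 0.0177, adjusted p = 0.505), and the difference of Syce2 was -0.11 (adjusted p = 0.712).

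Among the cohesins, Stag3 gave the smallest p of all 31 genes and fell short of the threshold once corrected. STAG3 is the subunit particular to meiotic cohesin complexes. It stood at 1537, 1539 and 1817 normalized counts in the Prm2+/+ libraries, at 1385, 1421 and 1367 in Prm2+/- and at 1374, 1198 and 1164 in Prm2-/-. Every Prm2+/+ value lay above every value of both other genotypes, while the Prm2-/- values overlapped those of Prm2+/-. Means were 1631 ± 161, 1391 ± 27.7 and 1245 ± 113 (SD, n = 3). The estimate for Prm2-/- against Prm2+/+ was a log2 fold change of -0.39 (SE 0.10, 95% interval -0.61 to -0.17, unadjusted p = 0.00359, adjusted p = 0.393, lower in 3 of 3 libraries). Without Prm2+/+ replicate 3, which held the highest value, it was -0.31 (adjusted p = 0.402). For Prm2+/- against Prm2+/+ it was -0.22 (SE 0.10, unadjusted p = 0.046, adjusted p = 0.842), and for Prm2-/- against Prm2+/- it was -0.16 (adjusted p = 0.963).

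Smc1b, which encodes a meiotic SMC subunit of the cohesin ring, had the highest level of this group. Its values were 1835, 2002 and 1739 in Prm2+/+, 2051, 1947 and 1442 in Prm2+/-, and 1719, 1772 and 1661 in Prm2-/-. The genotypes overlapped, both the highest and the lowest value belonging to Prm2+/- libraries. The log2 fold change between Prm2-/- and Prm2+/+ was -0.11 (SE 0.13, adjusted p = 0.821).

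Smc3, the other SMC subunit, which all cells use, ranged from 406 to 722 with a median of 603. Rec8, the cleavable meiotic ring subunit, ranged from 87.4 to 157, and Sgo2a, the shugoshin that protects REC8 at centromeres, from 130 to 262. For all these the genotypes overlapped. Rad21l, which encodes another meiotic ring subunit, had 0 counts in all 9 libraries, which allows up to 3 counts per library. Its row, like that of Mei4, is an annotated gene and not an assembled locus. Whether its reads were counted in another row was not examined.

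Hormad1, whose protein marks unsynapsed axes, stood at 118, 146 and 32.0 normalized counts in Prm2+/+, at 128, 136 and 140 in Prm2+/- and at 96.0, 129 and 115 in Prm2-/-. Prm2+/+ replicate 3 was far below the other 8 libraries, which ranged from 96.0 to 146. Between Prm2-/- and Prm2+/+ the estimate was a log2 fold change of 0.45 (SE 0.49, adjusted p = 0.809) and became -0.22 without that library (adjusted p = 0.741); by edgeR it was 0.21. Its direction rests on that library.

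Hormad2, a second HORMA protein of unsynapsed axes, ranged from 23.5 to 49.4 and overlapped between genotypes. Trip13, the ATPase that strips HORMA proteins from synapsed axes, was 50.4, 52.5 and 51.9 in Prm2+/+, 62.3, 51.2 and 54.8 in Prm2+/- and 58.9, 55.8 and 57.0 in Prm2-/-. The Prm2-/- values lay above the Prm2+/+ values by a log2 fold change of 0.15 (SE 0.12, 95% interval -0.14 to 0.43, adjusted p = 0.765).

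The genes of double-strand break formation had low counts and held the largest contrasts between single libraries. Spo11, which encodes the enzyme that makes the breaks, stood at 9.5, 151 and 156 normalized counts in Prm2+/+, at 3.95, 7.31 and 8.84 in Prm2+/- and at 3.62, 9.13 and 4.22 in Prm2-/-. Prm2+/+ replicates 2 and 3 were high, each with 141 counts, while the remaining 7 libraries, Prm2+/+ replicate 1 included, had 4 to 10 counts. Both levels thus existed within the wild type, and both other genotypes were at the lower one.

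Because only 2 libraries had more than a few counts, the filter on low values removed Spo11 before the main test. With any count admitted, the log2 fold change of Prm2-/- against Prm2+/+ was -3.33 by limma (unadjusted p = 0.00877, adjusted p = 0.621) and that of Prm2+/- was -3.09 (adjusted p = 0.844). DESeq2 called both, at -4.22 (adjusted p = 0.00278) and -3.97 (adjusted p = 0.0135), and did so too with only the 6 libraries compared (adjusted p = 0.0066 and 0.024; 0.685% and 0.258% of all genes called). With Prm2+/+ replicate 1 left out, limma called both as well, at -4.63 (adjusted p = 0.00846, 0.38% of all genes called) and -4.38 (adjusted p = 0.0138, 0.223% of all genes). With a Prm2+/- or Prm2-/- library left out the adjusted p was 0.624 to 0.913, and without Prm2+/+ replicate 2 or 3 the gene was again filtered out. These were the only calls among the 35 genes under any setting that was tried. Prm2+/+ replicate 1 is the wild-type library at the lower level, and the call by limma was made only without it.

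Mei1, required for break formation, stood at 30.4, 36.4 and 35.4 in Prm2+/+, at 30.6, 40.2 and 23.9 in Prm2+/- and at 22.6, 0 and 40.1 in Prm2-/-. Prm2-/- replicate 2 had no count, and the other 8 libraries ranged from 22.6 to 40.2. The estimate for Prm2-/- against Prm2+/+ was a log2 fold change of -1.82 (SE 1.2, adjusted p = 0.75), and without Prm2-/- replicate 2 it was -0.165. By edgeR it was -0.69 and by DESeq2 -0.7.

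Such a split into separate levels, defined as a gap of at least 2 on the log2 scale that exceeds the range on either side, was found for Spo11 and Mei1, 2 of the 34 genes with any count (5.88%), against 13.9% of all genes with any count in the table.

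Zcwpw1, a reader of the histone marks that PRDM9 writes, had the highest mean of this group. It stood at 105, 84.7 and 173 in Prm2+/+, at 106, 107 and 110 in Prm2+/- and at 109, 126 and 127 in Prm2-/-. Both its lowest and its highest value lay in Prm2+/+ libraries, with replicate 3 the high one. The log2 fold change between Prm2-/- and Prm2+/+ was 0.06 (SE 0.24, adjusted p = 0.965), and it took the opposite sign in DESeq2 and without Prm2+/+ replicate 1 or 2. Without replicate 3 it was 0.35 (unadjusted p = 0.0322, adjusted p = 0.557).

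Prdm9, the methyltransferase that selects hotspots, ranged from 10.1 to 29.0 normalized counts, the lowest and highest values both in Prm2-/- libraries. Mei4, whose protein belongs to the complex that assembles with SPO11 on the axes, had only 21 counts in all. Of these, 16 lay in the Prm2+/- libraries (exact Poisson interval 9.15 to 26.0, counting error only), 3 in Prm2+/+ (0.619 to 8.77) and 2 in Prm2-/- (0.242 to 7.22). Each Prm2+/- library had 5 or 6 counts and no other had more than 2. With any count admitted, limma gave Prm2-/- against Prm2+/- a log2 fold change of -2.07 (unadjusted p = 0.00518, adjusted p = 0.696). The share of all genes with a small p in that fit was not set beside it. Of the genes in the main test, 14.7% had the libraries of these 2 genotypes apart.

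**Figure D3:**
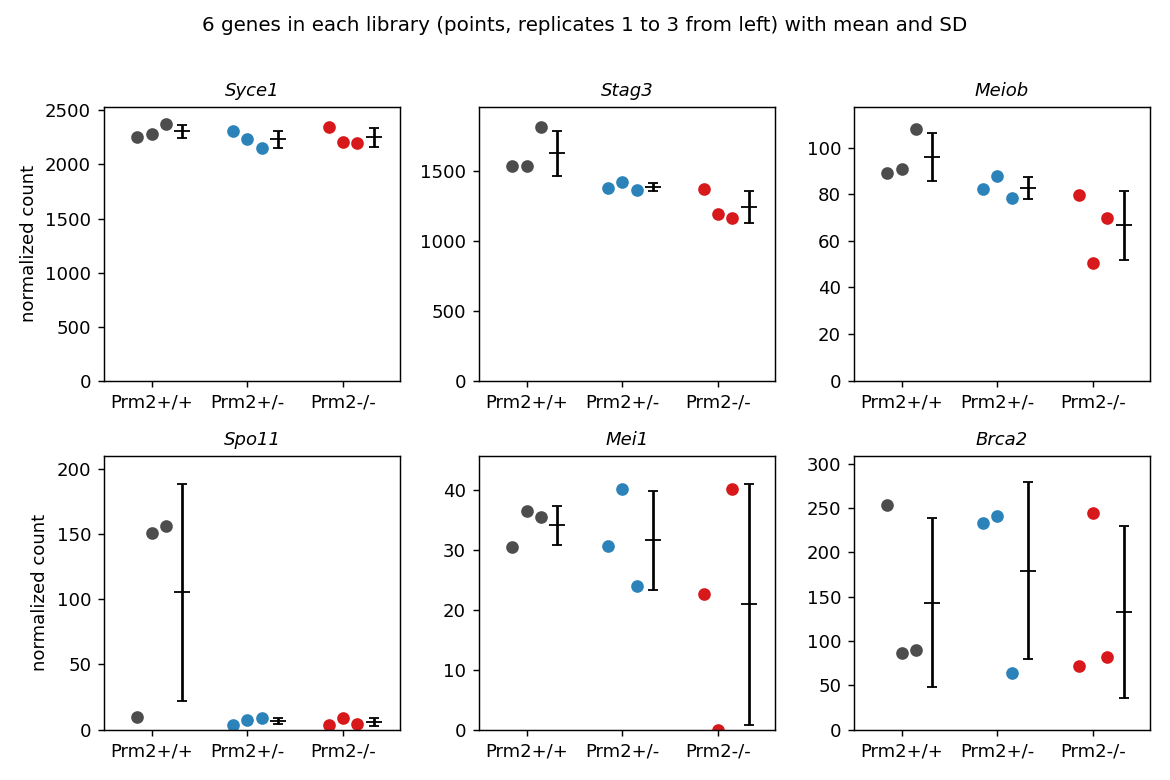
Normalized counts of 6 genes by genotype; points are libraries, in the order of replicates 1 to 3 from the left, and the bar beside them gives mean and SD (n = 3). Syce1 is level, Stag3 and Meiob are highest in Prm2+/+, Spo11 is high in 2 Prm2+/+ libraries only, Mei1 is at 0 in 1 Prm2-/- library, and Brca2 is high in 4 libraries of all genotypes.

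Among the genes of strand invasion and repair, Brca2 took distinct levels that did not follow genotype. BRCA2 loads the recombinases onto single-stranded DNA. Its values were 254, 86.8 and 89.5 in Prm2+/+, 233, 241 and 64.5 in Prm2+/- and 71.5, 245 and 82.4 in Prm2-/-. The 4 high libraries, from 233 to 254, were 1 Prm2+/+, 2 Prm2+/- and 1 Prm2-/-, and the 5 low ones, from 64.5 to 89.5, came from all genotypes too. The gap of 1.37 on the log2 scale was too small for the definition above. Between Prm2-/- and Prm2+/+ the estimate was a log2 fold change of -0.15 (SE 0.7, 95% interval -1.76 to 1.46, adjusted p = 0.97), and its sign turned on leaving out Prm2+/+ replicate 1 or Prm2-/- replicate 1 or 3, reaching 0.356 without Prm2+/+ replicate 1. The annotation places small nuclear RNA genes, an antisense gene and a sense intronic gene within Brca2, and their share of its counts was not tested.

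Meiob, which encodes a single-strand DNA binding partner of the recombination machinery, was the other gene with an unadjusted p under 0.05. It stood at 89.3, 91.1 and 108 in Prm2+/+, at 82.1, 87.7 and 78.6 in Prm2+/- and at 79.7, 50.7 and 69.7 in Prm2-/-. All Prm2+/+ values lay above all others, and Prm2-/- overlapped Prm2+/-. Means were 96.2 ± 10.5, 82.8 ± 4.57 and 66.7 ± 14.7 (SD, n = 3). The estimate for Prm2-/- against Prm2+/+ was a log2 fold change of -0.54 (SE 0.18, 95% interval -0.96 to -0.13, unadjusted p = 0.017, adjusted p = 0.59). It was -0.359 without Prm2-/- replicate 2, which had the lowest value, and -0.45 without Prm2+/+ replicate 3. For Prm2+/- against Prm2+/+ it was -0.21 (adjusted p = 0.842).

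Dmc1, the meiotic recombinase, ranged from 41.5 to 63.4 with a median of 53.0, and Mnd1, which helps DMC1 to capture the homologue, from 26.4 to 36.2. Genotypes overlapped for both. Mcmdc2, an MCM-domain protein needed for repair from the homologue, had 30 counts over the wild-type libraries, 29 over the heterozygous ones and 18 over the Prm2-/- ones, with exact Poisson intervals of 20.2 to 42.8, 19.4 to 41.6 and 10.7 to 28.4. With any count admitted its log2 fold change between Prm2-/- and Prm2+/+ was -0.77 (adjusted p = 0.8).

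The crossover genes showed no call either. Hfm1, a helicase that promotes crossovers, stood at 155, 148 and 192 in Prm2+/+, at 106, 168 and 149 in Prm2+/- and at 88.7, 160 and 128 in Prm2-/-. The genotypes overlapped, with the lowest value in Prm2-/- replicate 1. The log2 fold change between Prm2-/- and Prm2+/+ was -0.42 (SE 0.25, adjusted p = 0.744), and -0.194 without that library.

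Msh5, which with MSH4 forms a clamp that stabilises crossover intermediates, ranged from 13.6 to 45.6. Its estimate between Prm2-/- and Prm2+/+, a log2 fold change of -0.82 (SE 0.38, unadjusted p = 0.0644, adjusted p = 0.708), was the second most negative among the 31 genes after Mei1, but Prm2+/+ replicate 2, at 16.1, lay within the Prm2-/- range. Msh4 ranged from 43.5 to 76.1 in 8 libraries and was 15.5 in Prm2+/+ replicate 3. Its estimate for Prm2-/- against Prm2+/+ was 0.39 (adjusted p = 0.852), 0.11 by edgeR and -0.32 without that library. There Msh5 was 37.6, above 7 of the other 8 libraries. Mlh3, of the MutL endonuclease that resolves crossovers, ranged from 91.7 to 141, and Rnf212, a ligase that marks crossover sites, from 15.5 to 31.1.

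Genes of meiotic entry and of RNA control included an even and an uneven one. Meioc, which with YTHDC2 lowers mitotic transcripts in germ cells entering meiosis, stood at 502, 482 and 388 in Prm2+/+, at 520, 453 and 499 in Prm2+/- and at 516, 493 and 494 in Prm2-/-. Prm2+/+ replicate 3 was the lowest and the remaining values overlapped. Between Prm2-/- and Prm2+/+ the estimate was a log2 fold change of 0.14 (SE 0.11, adjusted p = 0.761), and 0.03 without that library.

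Ythdc2 ranged from 41.5 to 63.6. Stra8, the switch that starts meiosis in response to retinoic acid, stood at 25.7, 35.4 and 138 in Prm2+/+, at 48.4, 103 and 104 in Prm2+/- and at 32.6, 74.1 and 88.7 in Prm2-/-. Its lowest and highest values were both wild-type, and the log2 fold change of 0.25 between Prm2-/- and Prm2+/+ had an interval from -1.28 to 1.78. It was 0.97 without Prm2+/+ replicate 3 (adjusted p = 0.67), -0.22 without Prm2+/+ replicate 1, -0.03 without Prm2-/- replicate 3 and by DESeq2, and -0.01 by edgeR.

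Bub1b, a spindle checkpoint kinase, stood at 173, 130 and 60.8 in Prm2+/+, at 146, 161 and 152 in Prm2+/- and at 150, 133 and 122 in Prm2-/-. Again Prm2+/+ replicate 3 lay below the other 8, which ranged from 122 to 173. The estimate for Prm2-/- against Prm2+/+ was a log2 fold change of 0.28 (SE 0.33, adjusted p = 0.826) and was -0.15 without that library; by edgeR it was 0.16. Majin, which ties telomeres to the nuclear envelope, ranged from 51.9 to 84.0.

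The wild-type library that stood apart over all genes also stood apart here. Prm2+/+ replicate 3 held the lowest value of 9 of the 31 genes and the highest of another 9 (58.1% together, against 48.6% of all genes tested), whereas each other library held the lowest or highest value of 9.68% to 25.8% of the 31 genes and of 15.0% to 24.3% of all genes. In it Hormad1, Msh4 and Bub1b were over 2-fold below the median of the other 8 libraries and Stra8 over 2-fold above. Those 4 genes are 12.9% of the 31, and 17.4% of all genes tested deviated as far. The 10 markers of spermatocytes that lie outside recombination and synapsis summed to 15231 normalized counts in this library and to 39596 to 49717 in the others, with Ccna1 and Ldhc over 2-fold low and the other 8 within 2-fold. Ldhc led this sum, with a mean of 28150 in Prm2-/-, where the mean sum was 40987. The median log2 distance of the 10 markers in Prm2+/+ replicate 3 was -0.05. The part of these markers in the values of the meiotic genes was not tested. Without Prm2+/+ replicate 3, limma called 0 of the genes described here between Prm2-/- and Prm2+/+. Of the 32 genes that could then be tested, 4 had an unadjusted p under 0.05 by limma (Stag3 and Meiob lower, Syce3 and Zcwpw1 higher). The median log2 fold change of the 32 was -0.15. The shares and the median over all genes in that fit were not set beside these values.

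**Figure D4:**
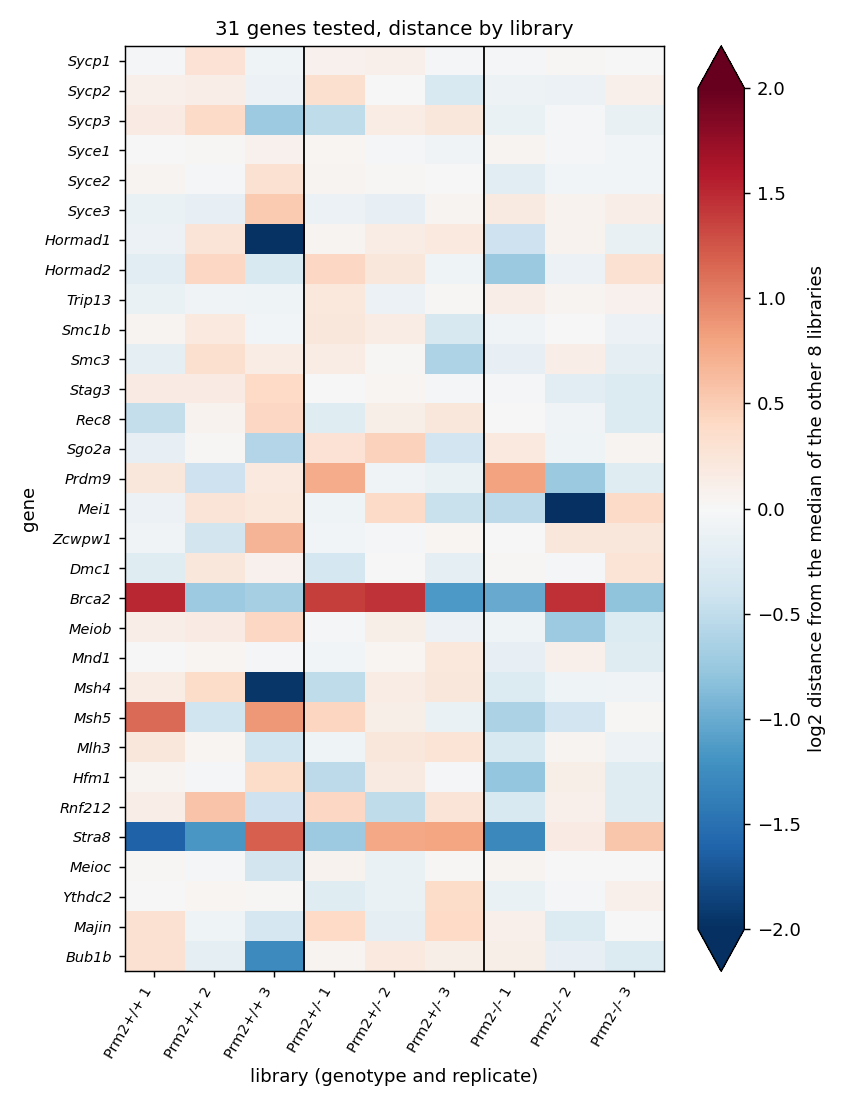
Log2 distance of each of the 31 genes tested (rows) in each library (columns) from the median of the other 8; red is above, blue below, and colours stop at 2 in either direction. The column of Prm2+/+ replicate 3 is the most coloured, with Hormad1, Msh4 and Bub1b low and Stra8 high, while the Syce1, Trip13 and Mnd1 rows are nearly blank.

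Summed over all 35 genes, the Prm2+/+ libraries reached a mean of 14802 ± 491 normalized counts, the heterozygous ones 14250 ± 839 and the Prm2-/- ones 13715 ± 107 (SD, n = 3). The Prm2-/- sums, 13623 to 13833, lay below those of Prm2+/+, 14479 to 15367, and within those of Prm2+/-, 13283 to 14800. Of the role groups, cohesins had the sums 4416 ± 211, 4094 ± 513 and 3855 ± 164 in the same order, and the synaptonemal complex 8435 ± 328, 8169 ± 295 and 8055 ± 76. For cohesins the Prm2-/- sums, 3672 to 3986, all lay below those of Prm2+/+, 4178 to 4582. For the synaptonemal complex the Prm2-/- sums, 7990 to 8138, also lay below those of Prm2+/+, 8241 to 8814. The genes of meiotic entry and RNA control ran the other way, with 568 to 577 in the wild type and 594 to 636 in Prm2-/-, which do not overlap either. Singly, Stra8, Meioc and Ythdc2 each overlapped between these genotypes. In Prm2+/+ replicate 3, which summed to 576, Stra8 had its highest value (138) and Meioc its lowest (388). Prm2+/+ replicates 1 and 2 summed to 577 and 568. Mean sums of the HORMA group (189 ± 67 in Prm2+/+ and 206 ± 24 in Prm2-/-) and of the telomere and checkpoint group (185 ± 69 and 198 ± 18) were also higher in Prm2-/-, with overlapping libraries. Those of break formation (278 ± 110 and 166 ± 20), strand invasion (335 ± 81 and 291 ± 81) and crossover formation (391 ± 37 and 330 ± 55) were lower, also with overlap. Within break formation, Spo11 had a mean of 105.5 in Prm2+/+, where 2 libraries were high, and of 5.66 in Prm2-/-. Zcwpw1 (120.9 and 120.4) and Prdm9 (16.88 and 17.97) were nearly level. Mei1 (34.07 and 20.92) and Mei4 (1.031 and 0.6037) were lower in Prm2-/-. Sums are led by the few abundant genes, and Stag3 contributes to that of the cohesins. Of single genes tested, 14.0% had the 3 libraries of Prm2-/- and of Prm2+/+ apart. How often sums of gene lists separate was not examined, so no background stands beside these sums or the marker sums below.

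Summed markers of most other testicular cells overlapped between Prm2-/- and Prm2+/+, those of spermatogonia and peritubular cells being the exceptions. The 10 round spermatid markers summed to between 8630 and 9266 in the wild type and to between 8460 and 9192 in Prm2-/-, and those of 10 elongating spermatid markers 228566 to 243825 and 223276 to 233480. Spermatogonial markers summed to 299 to 301 and 310 to 317, Sertoli markers (Fshr at 0 in all libraries) to 2779 to 3568 and 3120 to 3382, and Leydig markers to 2329 to 2665 and 2551 to 2770. The 4 peritubular markers summed to 293 to 325 in Prm2+/+ and 226 to 271 in Prm2-/-, and the part of these differences in the values of the meiotic genes was not tested. Macrophage markers summed to 262 to 344 and 319 to 336, and those of blood and endothelium to 448 to 746 and 553 to 803. Of 5 epididymal markers Lcn5 and Lcn8 were at 0 in all libraries, and the sum was at most 22. Between Prm2-/- and Prm2+/-, 8 of the 10 spermatocyte markers were below 0 and 2 above, with a median log2 fold change of -0.12. There 4 lay apart lower and 2 apart higher, against 14.7% of all genes tested, while the sums overlapped. Of 8 Sertoli markers tested 3 were apart, all higher, and of 10 elongating spermatid markers 3 higher and 1 lower. Limma called 0 of these, and their part in the values of the meiotic genes was not tested.

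A wider list of meiotic prophase genes was also without a limma call, but in the comparisons of Prm2-/- it leaned less to lower values. Of 65 further genes found in the table, 62 were tested and limma called 0 in each comparison. In Prm2-/- against Prm2+/+, 31 were above 0 and 31 below, with a median log2 fold change of 0.0. The same values were 28, 34 and -0.06 in Prm2-/- against Prm2+/-, and 33, 29 and 0.03 in Prm2+/- against Prm2+/+. In Prm2-/- against Prm2+/+, 3 had an unadjusted p under 0.05 (4.84%, against 7.33% of all genes), all lower (3.36% of all genes), and neither edgeR nor DESeq2 called a gene. The smallest p belonged to Cdc20, an activator of the anaphase-promoting complex (log2 fold change -0.25, adjusted p = 0.641), and Rbbp8, which encodes the nuclease cofactor CtIP (-0.27, adjusted p = 0.641). In Prm2+/- against Prm2+/+, 0 had an unadjusted p under 0.05, edgeR called 0 and DESeq2 called 1 (Rpa1; 0.265% of all genes). The smallest p there belonged to Mael, of the piRNA pathway (log2 fold change -2.81, SE 1.5, adjusted p = 0.842), and Stag2, a cohesin subunit of all cells (-0.31, adjusted p = 0.842). In Prm2-/- against Prm2+/-, 2 had an unadjusted p under 0.05 (3.23%, against 5.44% of all genes): Fkbp6, a co-chaperone of the piRNA pathway (log2 fold change -0.49, adjusted p = 0.871), and Cntd1, a cyclin-like crossover factor (3.1, SE 1.22, adjusted p = 0.887). There edgeR called 0 and DESeq2 called 1, Rpa1 (0.454% of all genes). For this list too, the share of all genes called by edgeR was not set beside its counts of 0.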

How the data were processed

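RNA of whole testis was sequenced from transcript ends (QuantSeq 3′ mRNA) in 9 libraries. Per the labels and methods, the authors trimmed reads with Trim Galore 0.4.5, aligned them with HISAT2 2.1 to GRCm38 (Ensembl release 89), assembled and counted loci with StringTie 1.3.3 and used DESeq2. The deposited values are a signal: gene counts divided by 1 size factor per library. Whole counts were recovered from the steps between values (100% of values whole within 0.0001). Strand use in counting is not given in the sources used here, so overlapping genes (17 of the 35) cannot be told apart from their neighbours.

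Genes passing filterByExpr (edgeR 4.0.16) were tested on log2(value + 1) with limma 3.58.1 (trend, all 9 libraries, genotype as the only term) in R 4.3.3, with Benjamini-Hochberg adjustment over all 14893 genes. Fold changes are on the log2(value + 1) scale, on which the added 1 understates the change of low genes, while a single library at 0 can enlarge it (Mei1). A call needed an adjusted p under 0.05 and a log2 fold change beyond 0.5. Values in each library are given for genes that were called, had an unadjusted p under 0.05, lay at 2 levels or led their role group, and for others chosen after their values were seen (Syce2, Syce3, Trip13, Stra8). Alternatives were TMM factors, pseudocounts of 0.5 and 5, filters (at least 10 counts in every library, or any count), the 6 libraries compared, edgeR's quasi-likelihood test, DESeq2 1.42.0, a replicate block, leaving out each library, and leaving out overlapping genes. Counting intervals are exact and cover counting error only. Scripts were tested on simulated data. Positions and exon lengths come from GENCODE M21, promoters from RefSeq. Members, lists and tests were chosen with earlier results of these data known. The gene behind 1 call of an alternative is not reported here.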

Additional observations from a re-analysis of the deposited data

How the results depend on the processing

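Of the 35 genes, only Spo11 was called under any alternative: DESeq2 on 9 or on 6 samples called 1 gene in Prm2-/- against Prm2+/+ and 1 in Prm2+/- against Prm2+/+, and leaving out each library gave 0 to 1 in both (1 without Prm2+/+ replicate 1) and 0 in Prm2-/- against Prm2+/-. The cause of this difference between tools was not tested. Of the other meiotic prophase genes, DESeq2 on 9 samples called 1 (Rpa1) in Prm2+/- against Prm2+/+ and 1 in Prm2-/- against Prm2+/-, DESeq2 on 6 samples called 1 (Cntd1) in the latter, and leaving out libraries gave 0 to 1 in Prm2-/- against Prm2+/+ (1 without Prm2+/+ replicate 1).

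The median log2 fold change of the genes ranged over the fits that left out a library from -0.15 (without Prm2+/+ replicate 3) to -0.03 in Prm2-/- against Prm2+/+, from -0.04 to 0.03 in Prm2+/- against Prm2+/+ and from -0.16 to -0.07 in Prm2-/- against Prm2+/-, where it was -0.16 with any count admitted.

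Counts over all genes, 27, 12 and 26 in the order above, came to 9, 1 and 11 when a gene needed 10 counts in each library, to 140, 66 and 113 by DESeq2 on 9 samples and to 165, 62 and 160 on 6. Limma on 6 samples gave 50 and 52 for the comparisons of Prm2-/-, and any count admitted gave 21 for Prm2+/- against Prm2+/+. Without 1 library they were 28 to 64, 9 to 44 and 23 to 50; the lowest in each was without Prm2-/- replicate 2.

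Deviations of libraries with the same replicate number were nearly uncorrelated (r from -0.0365 to 0.0423 over 9 pairs). The closest library of another genotype had the same number in 10 of 18 cases, so whether the numbers pair libraries was not settled. With a replicate block 15, 6 and 14 of all genes were called, and 0 of the 35.

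Of single genes, Zcwpw1 in Prm2-/- against Prm2+/+ turned to -0.0045 and -0.0034 by DESeq2 on 9 and 6 samples and ranged from -0.164 to 0.349 without 1 library. Other changes of sign came from leaving out 1 library. In Prm2-/- against Prm2+/+, Hormad1 ranged from -0.218 to 0.857, Brca2 from -0.702 to 0.356 and Bub1b from -0.151 to 0.596. In Prm2+/- against Prm2+/+, Smc1b ranged from -0.147 to 0.107, Mei1 from -0.318 to 0.0463, Zcwpw1 from -0.32 to 0.193, Brca2 from -0.03 to 0.913 and Meioc from -0.0056 to 0.18. In Prm2-/- against Prm2+/-, Syce1 ranged from -0.0196 to 0.0359, Smc1b from -0.219 to 0.035, Hfm1 from -0.376 to 0.0473 and Meioc from -0.0241 to 0.0751.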

Other observations

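Of the 65 other meiotic prophase genes, 7 lay at separate levels across the libraries by the same definition (10.8%, against 13.9% of all genes with any count). Mael stood at 4761, 4454 and 4130 normalized counts in Prm2+/+, at 226, 230 and 4851 in Prm2+/- and at 168, 4583 and 220 in Prm2-/-. All wild-type libraries were at the upper level, together with 1 library of each other genotype. Rpa1, which encodes the large subunit of the single-strand DNA binding complex RPA, stood at 656 in Prm2+/- replicate 1 and at 8.22 to 29.2 in the other 8 libraries, so that its call by DESeq2 rests on 1 library.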
